A study of Mus musculus with 6 samples.

Results

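The replication histone genes encode most of the histone protein that newly copied DNA is packed with. They were taken here as all 67 genes, of 31053 counted, whose symbol begins with Hist1h, Hist2h, Hist3h or Hist4h. By the histone they encode they comprise 6 linker (H1), 18 H2A, 18 H2B, 12 H3 and 13 H4 genes. In the mm10 genome 54 of them lie on chromosome 13 between positions 21715763 and 23934851, 10 lie on chromosome 3 between 96219865 and 96270132, 2 on chromosome 11 and 1 on chromosome 6. They were counted in mouse splenocytes by CITE-seq, which sequences the RNA of single cells together with DNA-tagged antibodies. The labels give a young saline control (3 months), an aged saline control (20 months) and an aged PF4 treated group (20 months), all C57BL/6 and, per the methods, male. Every group got 8 tail vein injections of 100 μL over 24 days, either saline or recombinant mouse PF4 at 5 μg/mL, a chemokine that platelets release, and the splenocytes of 5 mice were pooled in each. Barcodes carry a suffix of 1, 2 or 3 that no source used here ties to a group, so the libraries are named 1, 2 and 3, and neither age nor PF4 was compared. Each library has no replicate, no test was made, and every interval given is an exact 95% interval for counting error alone.

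Replication histone genes are switched on as cells enter S phase, when the transcription coactivator NPAT, phosphorylated by cyclin E and CDK2, acts at the histone gene clusters. Their transcripts have no introns and mostly end not in a poly(A) tail but in a short RNA hairpin. Stem-loop binding protein (SLBP) holds that hairpin, guides the cut that forms the 3′ end, and the transcripts are degraded when DNA synthesis stops. H2A, H2B, H3 and H4 form the nucleosome core, and H1 binds the linker DNA between nucleosomes. In the spleen the dividing cells include germinal centre B cells, stimulated T cells, plasmablasts and, in mice, red cell precursors. The 3′ chemistry used here primes on runs of A, so it counts the part of these transcripts that carries a tail or an internal A run, and UMIs (unique molecular identifiers, each 1 captured molecule) of different histone genes cannot be read as their relative abundance.

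The hairpin is shown for the most counted member of each histone type, since it is the 3′ end that separates these transcripts from other mRNAs and from the chemistry used to count them. Capitals mark the 16 bases of the hairpin (a stem of 6 base pairs around a loop of 4 bases), and lower case marks 7 bases on either side, 5′ to 3′ in the sense of the transcript, from the GENCODE M21 transcripts of GRCm38 (mm10).
Hist1h1e: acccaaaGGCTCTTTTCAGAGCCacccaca
Hist1h2ae: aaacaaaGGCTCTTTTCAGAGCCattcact
Hist1h2be: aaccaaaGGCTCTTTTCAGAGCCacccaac
Hist1h3c: aaaaaaaGGCTCTTTTAAGAGCCacctaag
Hist1h4d: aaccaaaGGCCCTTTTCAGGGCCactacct

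These hairpins lie in the 3′ UTR, past the stop codon, at chr13:23621782.0-23621797.0, minus strand (Hist1h1e), chr13:23570668.0-23570683.0, minus strand (Hist1h2ae), chr13:23585531.0-23585546.0, minus strand (Hist1h2be), chr13:23745047.0-23745062.0, minus strand (Hist1h3c) and chr13:23581950.0-23581965.0, plus strand (Hist1h4d). A hairpin of this form was found past the stop codon in 46 of the 67 members, in 4 of 6 H1, 11 of 18 H2A, 10 of 18 H2B, 9 of 12 H3 and 12 of 13 H4 genes. In 15 of the 21 others the annotated transcripts hold under 16 bases past the stop codon (13 end at it), so no hairpin could be found there and these counts say nothing of its absence. The form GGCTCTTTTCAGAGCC, seen above in Hist1h1e, Hist1h2ae and Hist1h2be, occurred in 26 members of types H1, H2A, H2B and H3 and in no H4 gene. All 12 H4 hairpins had a stem of other bases, which no member of another type shared: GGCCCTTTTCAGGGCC in 7, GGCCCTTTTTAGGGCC in 2, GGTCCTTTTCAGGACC in 2 and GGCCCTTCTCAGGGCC in 1. Of the 46 annotated transcripts, 23 ran 100 bases or more past the hairpin and 23 ended nearer to it.

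A barcode was kept as a cell with 300 to 5000 genes and at most 10% mitochondrial UMIs, which left 4199, 7511 and 8451 cells in libraries 1, 2 and 3, with 20032690 to 35697547 RNA UMIs per library and a median of 3625 to 3765 per cell. A cell was placed in the cycling gate with at least 2 UMIs of Mki67 and Top2a together, both genes of dividing cells. The gate held 502 (11.96%), 138 (1.84%) and 193 (2.28%) cells. Library 1 stood apart: 386 of its cells were erythroid-like, against 7 and 33, and these gave 309 of its 502 gated cells, so results were also taken without erythroid-like cells. Lineages are clusters made without the histone genes and the genes that follow the gate, named from marker genes. Clusters 6, 7, 9 and 15 stayed unnamed, with Cd8a and Cd8b1 among the leading genes of cluster 6, Gzmm and Klrc1 of cluster 7, Bhlhe41 and Zbtb32 of cluster 9, and Gzmk and Lag3 of cluster 15. T marker genes scored highest in 92.8%, 83.3% and 87.7% of the cells of clusters 6, 7 and 15. The set named T-like leaves these cells out. Libraries shared 68 barcode sequences. No doublet caller was run.

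Replication histone transcripts were 10.8 to 19.7 times higher in the cycling gate than in the other cells. Summed over the members they made up 22355, 10161 and 11116 UMIs per 1000000 RNA UMIs (CPM) in the cycling cells of libraries 1, 2 and 3, and 1132, 941 and 896 CPM in the other cells. No interval of a cycling value came near one of the other cells, the closest bounds being 9994 CPM for the cycling cells of library 2 and 1149 CPM for the other cells of library 1. The ratio of cycling to other cells was 19.7 (19.4 to 20.1), 10.8 (10.6 to 11.02) and 12.4 (12.2 to 12.6). In library 1 the ratio was 9.48 without erythroid-like cells, and in libraries 2 and 3 it was then 10.8 and 12.2. Cycling cells thus gave 83.9%, 32.8% and 41.3% of all replication histone UMIs from 11.96%, 1.84% and 2.28% of the cells. Of all RNA UMIs they gave 20.9%, 4.33% and 5.36%, since gated cells were deeper. In libraries 2 and 3 the ratio moved with the upper limit on genes per cell. With a limit of 3500 genes per cell in place of 5000, 438, 98 and 141 gated cells were left and the ratio was 19.3, 3.68 and 3.77. With every cell thinned to 1000 UMIs it was 13.2, 6.36 and 7.17. The part of multiplets in this was not tested.

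Within the gate the histone UMIs were held by few cells. The 51, 14 and 20 cells with the most replication histone UMIs, 10% of the gate, gave 60.1%, 84.9% and 80.8% of its UMIs, with up to 2314, 1433 and 1611 UMIs in 1 cell. The median gated cell was at 4347, 1034 and 1049 CPM, against 1123, 862 and 825 CPM for the median of the other cells, so in libraries 2 and 3 a typical gated cell was near the cells outside. Among gated cells the level rose with the number of Mki67 and Top2a UMIs. Cells with 2 to 3, which made up 31.7%, 56.5% and 57.0% of the gate, had 1364, 804 and 856 CPM of replication histone transcripts. Cells with 0 had 1133, 944 and 902 CPM, so in libraries 2 and 3 those with 2 to 3 stood lower, with intervals apart in library 2. In library 1 the erythroid-like share rose as well, from 35.2% of cells with 2 to 3 to 80.6% of cells with 30 or more. Cells with 4 to 9 had 4264, 1175 and 2197 CPM and cells with 10 to 29 had 10064, 2082 and 4519 CPM. Cells with 30 or more had 41960.4, 36845 and 33588 CPM. The 262, 35 and 55 cells with 10 or more, a limit set after the values were seen, held 96.1%, 94.3% and 94.2% of the histone UMIs of the gate. They were also deeper, with medians of 8118, 15905 and 15544 UMIs per cell against 6075, 8756 and 7575 for the whole gate.

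**Figure D1:**
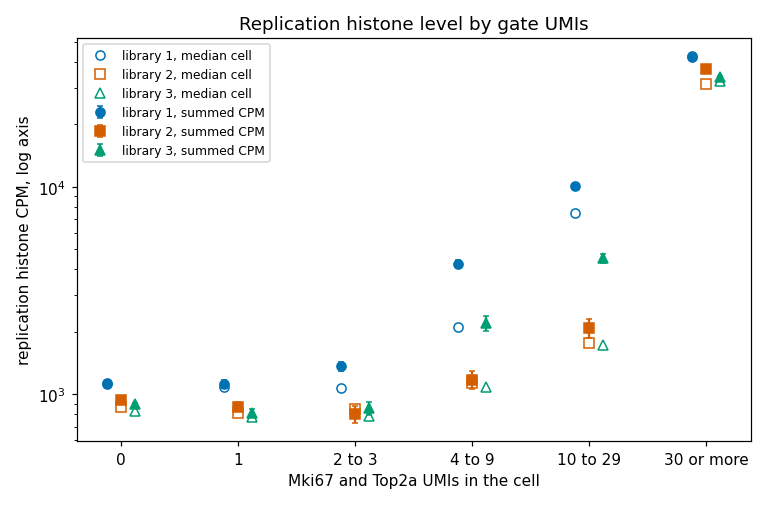
Summed replication histone CPM (filled, with exact 95% Poisson intervals) and the median over cells (open) by the number of Mki67 and Top2a UMIs in the cell, per library, on a log axis. Cells with 2 to 3 gate UMIs sit near those with 0 or 1, and cells with 30 or more reach 41960.4, 36845 and 33588 CPM.

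Most members were higher in cycling cells, and none was called lower. A member was called where its CPM ratio was at least 2, with intervals apart, in the same direction in all 3 libraries. By this rule 50 of the 67 were higher in cycling cells and 0 were lower, against 2.21% of the 19403 genes with a UMI called higher and 0.825% called lower. Of the rest, 14 were detected and not called and 3 (Hist1h2aa, Hist1h2ba and Hist1h2bq) had no UMI in 88000761, which allows up to 3 UMIs in these cells. Over the 57 members with at least 100 UMIs the median ratio was 26.1, 9.04 and 11.7, whereas over all 11933 genes with at least 100 UMIs it was 0.639, 0.998 and 0.910. Without erythroid-like cells 48 members were higher, all of them among the 50, and 0 lower, against 2.1% and 0.482% of genes. The count was 31 with the limit of 3500 genes and 26 after thinning to 1000 UMIs.

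**Figure D2:**
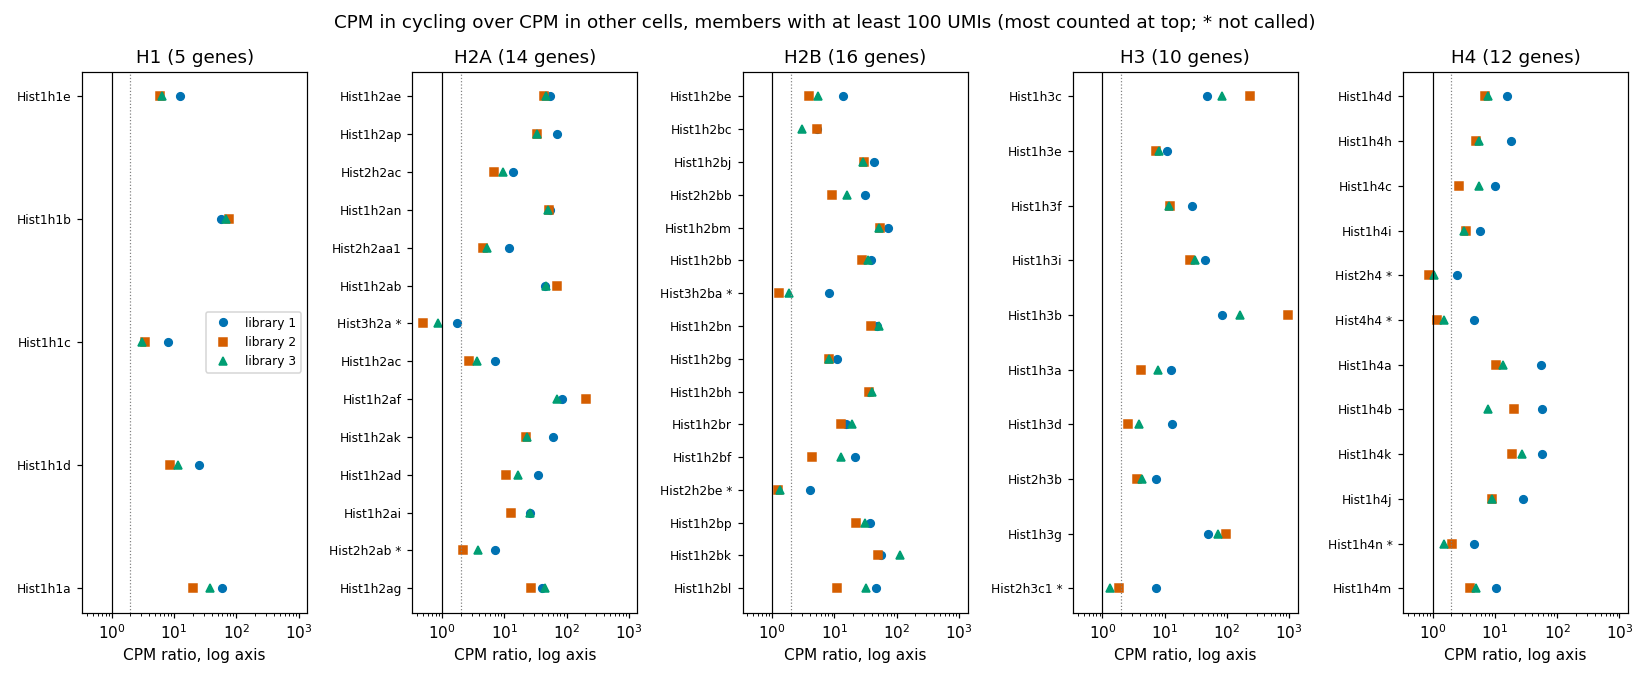
CPM in cycling cells over CPM in other cells (log axis) for the 57 members with at least 100 UMIs, by histone type and library, the most counted at the top. Most points lie right of the dotted line at a ratio of 2, and starred genes such as Hist3h2a and Hist2h4 reach 1 or less in a library.

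All 5 types were higher in cycling cells, by unequal amounts. The summed H2A genes were at 4974, 2984 and 3492 CPM in cycling and 165, 159.6 and 166 CPM in other cells, ratios of 30.2, 18.7 and 21.1. Summed H3 genes had ratios of 25.1, 18.7 and 20.1. The ratios were 17.6, 9.24 and 10.6 for H1 and 19.2, 9.10 and 10.5 for H2B. H4 genes had the smallest, 14.4, 5.21 and 6.22, with 2562, 933 and 1129.5 CPM in cycling and 178, 179 and 182 CPM in other cells. H4 accordingly gave 15.8, 19.1 and 20.3% of replication histone UMIs outside the gate and 11.5, 9.19 and 10.2% within it. Members called higher numbered 5 of 6 H1, 13 of 18 H2A, 14 of 18 H2B, 9 of 12 H3 and 9 of 13 H4 genes. The 206295 UMIs were unevenly spread: the 3 most counted members, all H1 genes, held 39.6% and the first 10 held 72.03%.

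Linker histones behaved as separate genes. Hist1h1e, the most counted member with 38029 UMIs, had 3649.6, 1403 and 1244 CPM in cycling and 289, 233 and 196 CPM in other cells. It was the most counted linker gene of the cells outside the gate, and its ratios of 12.6, 6.01 and 6.34 were moderate. Hist1h1b (24121 UMIs) had 3629, 1819.5 and 1932 CPM in cycling and 62.9, 24.1 and 28.2 CPM in other cells, ratios of 57.7, 75.5 and 68.6. It passed Hist1h1e in the cycling cells of libraries 2 and 3, and in library 1 they were level, with intervals that overlap. Hist1h1c, which many resting cells express, had 1481, 511 and 401 CPM in cycling and 184, 150.4 and 131 CPM in other cells, the lowest ratios of the called H1 genes at 8.07, 3.40 and 3.07. Hist1h1d had 907, 333 and 394 CPM in cycling and 36.0, 38.1 and 34.6 CPM in other cells, and Hist1h1a, the least counted of the somatic H1 genes here, had 573, 97.4 and 197 CPM in cycling and 9.66, 4.89 and 5.24 CPM in other cells. Hist1h1a was thus 59.4, 19.9 and 37.7 times higher in cycling cells, and in libraries 2 and 3 its ratio was under that of Hist1h1b. Without erythroid-like cells the ratio in library 1 was 15.6 for Hist1h1a and 29.96 for Hist1h1b. Hist1h1t, the testis linker gene, had 4 UMIs.

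Among the H2A genes, which form dimers with H2B, Hist1h2ae (11169 UMIs) had 1504, 812 and 1027 CPM in cycling and 27.4, 18.9 and 22.3 CPM in other cells. Hist1h2ap (10423 UMIs) had 1069, 1041 and 1127 CPM in cycling and 15.3, 30.7 and 33.9 CPM in other cells, so these most counted H2A genes were 33.3 to 69.7 times higher in cycling cells. Hist2h2ac, of the cluster on chromosome 3, had 821, 369.6 and 449 CPM in cycling and 60.5, 53.0 and 46.3 CPM in other cells, a smaller ratio of 13.6, 6.98 and 9.70. The other Hist1 genes with strong ratios were Hist1h2an (54.1, 52.1 and 50.6), Hist1h2ab (44.3, 69.6 and 47.4), Hist1h2af (84.5, 208 and 69.6), Hist1h2ak (60.2, 22.1 and 23.1) and Hist1h2ag (40.7, 26.9 and 45.9). Ratios were lower for Hist1h2ad (34.2, 10.7 and 16.9) and Hist1h2ai (26.1, 12.8 and 25.9). Hist2h2aa1 (11.9, 4.51 and 5.23) and Hist1h2ac (6.998, 2.67 and 3.64) were called with ratios that fell under 5 in a library. Hist3h2a, from the small cluster on chromosome 11, went its own way: 22.7, 6.45 and 11.5 CPM in cycling and 12.8, 13.2 and 13.2 CPM in other cells, ratios of 1.77, 0.490 and 0.868, not called. Hist2h2ab (7.22, 2.14 and 3.78) was not called either, its intervals overlapping in library 2.

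H2B genes were each counted less. Hist1h2be (3404 UMIs) had 325, 84.5 and 109.7 CPM in cycling and 24.0, 21.5 and 19.9 CPM in other cells, and its annotated transcript overlaps Hist1h1e on the same strand. Hist1h2bc (2559 UMIs) had 163, 83.1 and 58.5 CPM in cycling and 30.6, 16.03 and 19.7 CPM in other cells, a modest rise of 5.34, 5.18 and 2.96 times. Hist1h2bj had 315, 137 and 141 CPM in cycling and 7.19, 4.63 and 4.94 CPM in other cells. In 10 further Hist1 genes the other cells of every library had under 5 CPM. Of these, ratios were largest for Hist1h2bm (71.4, 53.7 and 52.3), Hist1h2bn (47.7, 38.2 and 51.3), Hist1h2bb (38.9, 28.1 and 34.5), Hist1h2bh (36.1, 35.6 and 39.99), Hist1h2bp (37.4, 22.1 and 31.1), Hist1h2bk (54.9, 49.8 and 112) and Hist1h2bl (46.9, 11.1 and 31.8). Smaller ones were found for Hist1h2br (15.2, 12.9 and 19.1), Hist1h2bf (21.1, 4.42 and 12.6) and Hist1h2bg (10.8, 8.12 and 8.13). Hist2h2bb, on chromosome 3, was 30.8, 9.04 and 15.7 times higher. The 2 H2B genes not called with at least 100 UMIs were Hist3h2ba, at 87.7, 12.2 and 18.8 CPM in cycling and 10.6, 9.36 and 10.1 CPM in other cells, and Hist2h2be, at 10.0, 4.30 and 5.74 CPM in cycling and 2.46, 3.47 and 4.32 CPM in other cells. Both were over 4 times higher in library 1 and under 2 times in libraries 2 and 3, and without erythroid-like cells the ratios in library 1 were 1.3986 and 1.44.

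An H3 gene, Hist1h3b, had the largest ratio of the members with at least 100 UMIs in libraries 2 and 3, and in library 1 the H2A gene Hist1h2af was level with it at 84.5. Hist1h3c (7630 UMIs) had 1095, 657 and 725 CPM in cycling and 23.0, 2.85 and 8.55 CPM in other cells. Hist1h3b had 216, 153 and 146 CPM in cycling and 2.59, 0.162 and 0.918 CPM in other cells, and 94.8% of its 1474 UMIs came from gated cells, the highest share of the members with at least 100 UMIs. Its ratio of 942 in library 2 rests on 5 UMIs outside the gate. Hist1h3g had no UMI outside the gate in library 2 and 9.31 CPM (4.96 to 15.9) within it, from 13 UMIs. Its ratio there was 95.8 with the outside set to 3 UMIs, and it was 49.8 and 70.6 in libraries 1 and 3. Hist1h3i (44.9, 25.2 and 30.8) and Hist1h3f (27.9, 12.3 and 11.7) followed. Hist1h3e (6138 UMIs) was well counted outside the gate too, at 481, 289 and 292 CPM in cycling and 44.2, 40.2 and 36.1 CPM in other cells. Smaller ratios were seen for Hist1h3a (12.6, 4.11 and 7.77), Hist1h3d (13.1, 2.57 and 3.85) and Hist2h3b (7.39, 3.60 and 4.26). Hist2h3c1 (7.15, 1.84 and 1.32, 105 UMIs) was not called, and none of its sequence is unique among the annotated transcripts in stretches of 60 bases.

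Hist1h4d led the H4 genes with 14086 UMIs and 1336, 568 and 605 CPM in cycling and 84.1, 82.4 and 78.9 CPM in other cells. Hist1h4h had 641, 191 and 241 CPM in cycling and 34.7, 38.3 and 42.5 CPM in other cells, and Hist1h4c had 257, 70.9 and 162 CPM in cycling and 25.2, 26.5 and 28.7 CPM in other cells. Hist1h4i had 100.3, 45.1 and 43.9 CPM in cycling and 17.5, 13.2 and 13.6 CPM in other cells, the lowest ratios of the called H4 genes in libraries 1 and 3. The less counted Hist1h4a (54.9, 10.2 and 13.3), Hist1h4b (57.7, 20.3 and 7.67), Hist1h4k (58.0, 19.0 and 27.3) and Hist1h4j (28.0, 8.85 and 9.04) stood higher in cycling cells by more. Hist1h4m (10.5, 4.02 and 4.96, 133 UMIs) was called, and not called without erythroid-like cells. Of the 3 not called with at least 100 UMIs, Hist2h4 on chromosome 3 had 15.3, 6.45 and 6.27 CPM in cycling and 6.25, 7.42 and 6.01 CPM in other cells, Hist4h4 on chromosome 6 had 22.0, 6.45 and 8.36 CPM in cycling and 4.73, 5.54 and 5.39 CPM in other cells, and Hist1h4n had ratios of 4.57, 2.05 and 1.53. Outside library 1, Hist2h4 and Hist4h4 differed between gated and other cells by no more than their counting intervals, and in library 1 their ratios without erythroid-like cells were 1.13 and 1.17. The 7 members with 1 to 99 UMIs (Hist1h4f, Hist2h3c2, Hist1h3h, Hist1h2ah, Hist1h2ao, Hist1h1t and Hist2h2aa2) had 80, 45, 32, 27, 19, 4 and 1 UMIs, and Hist1h2ah alone of them was called, though not without erythroid-like cells.

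The ratio differed with how the annotated transcript ends, a grouping made after the ratios were known and given without a test. The 21 members with at least 100 UMIs that run 100 bases or more past the hairpin had median ratios of 10.9, 3.92 and 5.65, and 16 were called higher. The 20 that end nearer to it had medians of 39.8, 24.5 and 29.8, and 19 were called. The 16 with no hairpin in the transcript had 45.9, 15.9 and 26.6, with 14 called, but for 11 of them the annotation stops too near the stop codon to hold one, so this class does not describe how their transcripts end. Members that run past the hairpin gave 70.1, 73.6 and 70.1% of the replication histone UMIs outside the gate and 48.0, 43.0 and 41.2% within it. A poly(A) signal within 40 bases of the annotated end marked 15 of the 57, with median ratios of 8.27, 3.42 and 3.24 and 9 called, against 35.2, 12.5 and 20.0 and 40 called for the 42 without one. The ranges overlapped widely, from 0.490 to 54.9 with the signal and from 1.53 to 942 without, and Hist1h2ae, which has both the signal and the extension, was 42.8 to 54.9 times higher in cycling cells. Members without the signal still gave 69.4% to 70.8% of the UMIs outside the gate.

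**Figure D3:**
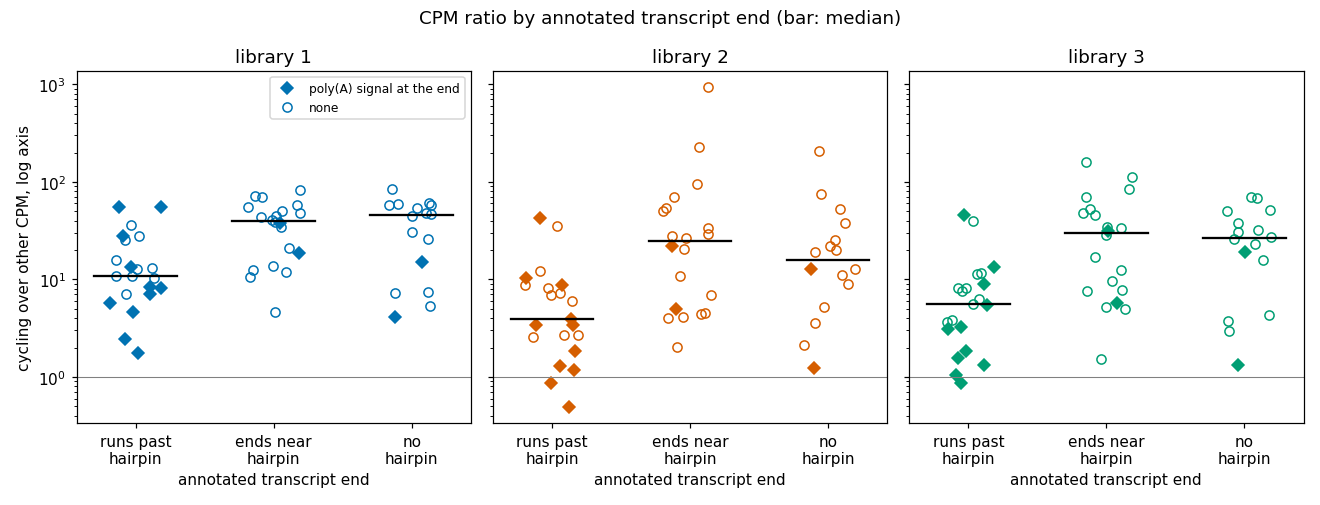
CPM in cycling over other cells (log axis) for the 57 members with at least 100 UMIs by annotated transcript end, per library, with the median as a bar and filled diamonds for a poly(A) signal at the end. The first class has the lowest median in every library, 10.9, 3.92 and 5.65, and the classes overlap.

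The members share promoter motifs that the choice by name did not use. RefSeq promoters of GRCm38.p6, 250 bases before to 50 after the start, matched 62 members. The letters CCAAT, searched on both strands, were in 53 of them against 37.4% of 32851 promoters: in all 6 H1, 18 H2A, 16 H2B and 10 H3 genes with a promoter, and in 3 of 12 H4 genes. TATAAA was in 35 (13.6% of all promoters). ATTTGCAT, the octamer that OCT1 binds in H2B promoters, was in 14 (1.74% of all promoters), 7 H2B and 7 H2A genes and no other type. Paired H2A and H2B genes with gaps of 175 to 305 bases have overlapping windows, so a single motif can count for both. Both genes had the octamer in the pairs Hist1h2ah and Hist1h2bk, Hist1h2ae and Hist1h2bg, and Hist1h2aa and Hist1h2ba. The motif counts are thus not counts of separate sites. In 12 places an H2A and an H2B gene stand head to head within 500 bases, and several pairs were counted unequally: Hist1h2ap had 10423 UMIs and Hist1h2br 486 across a gap of 235 bases, Hist2h2ac 8972 and Hist2h2be 351 across 238, and Hist1h2ae 11169 and Hist1h2bg 541 across 175. Other pairs were near level, with 902 UMIs of Hist1h2ak and 1165 of Hist1h2bn and with 370 of Hist1h2bf and 463 of Hist1h2ad, and Hist1h2ba and Hist1h2aa were both at 0. Hist1h2ag and Hist1h2bj went the other way, with 161 and 2204 UMIs.

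Near-identical copies make single members uncertain. In 32 of the 67 members under 50% of stretches of 60 bases are unique among the annotated transcripts, and these had a median of 299 UMIs and 18.9% of the total, whereas the 35 more unique members had a median of 1219. Annotated transcripts of 7 members overlap another gene on the same strand and those of 21 overlap one on the other strand. How reads shared by copies were counted is stated in no source used here.

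Erythroid-like cells of library 1 held the highest level of any gated set of at least 10 cells. Of them 309 of 386 were in the gate and stood at 32358 CPM (32123 to 32593), against 1125 CPM in the other 77, a ratio of 28.8. They gave 77.8% of the replication histone UMIs of the gate in that library. Of the smaller gated sets, cluster 15 in library 2 stood higher, at 40980 CPM (39395 to 42613) from 7 cells. Gated NK-like cells had 30571, 24277 and 21727 CPM from 5, 2 and 6 cells. Cycling T-like cells had 16580.3, 14209.9 and 13826 CPM from 17, 24 and 42 cells, 16.03 to 18.5 times the other T-like cells. Cycling B-like cells had 5787, 10025 and 11997 CPM from 35, 45 and 78 cells, ratios of 3.72, 8.14 and 11.3. In library 1 alone at least 10 gated cells were neutrophil-like (27 cells, 18898 CPM) or macrophage-like (25 cells, 16979.7 CPM). The neutrophil-like set joins cluster 20, led by Ngp, Camp and Ltf, with cluster 11, led by Il1b, Stfa2l1 and Csf3r. Cluster 20 had 144 cells, 142 of them in library 1, and 15.97% were gated, against 588 cells and 0.85% in cluster 11. Dendritic-like gated cells had 9682, 2571 and 8763 CPM. Plasma-like cells of library 3 were often gated (16 of 38) and reached 4815 CPM, 8.61 times those outside.

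Gated monocyte-like cells had the level of those outside. The 11 gated monocyte-like cells of library 1 had 1096 CPM (947 to 1261) and the other 131 had 1130.2 CPM, a ratio of 0.970 (0.827 to 1.13). Of them 8 had 10 or more Mki67 and Top2a UMIs and 12220 CPM of the G2M genes, near the 12431 CPM of B-like cells of that library with as many, yet they had 1111 CPM of replication histones, from 390.5 to 1899.6 CPM per cell. The 7 B-like cells of library 1 with as many gate UMIs had 7905 CPM, from 897 to 27462 CPM per cell. S phase genes summed to 2111 CPM in the 8 and to 4312 CPM in the 7 cells. Single cells ranged widely in the other lineages too, from 120 to 119128 CPM over the 211 erythroid-like cells with 10 or more gate UMIs. Gated cells of cluster 9 were also low, at 1312 and 3992 CPM in libraries 1 and 2, 1.42 and 4.70 times the cells outside. Cluster 15 reached 10073 CPM from 27 gated cells of library 1, and 40980 and 27904.5 CPM from 7 gated cells in each of libraries 2 and 3.

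**Figure D4:**
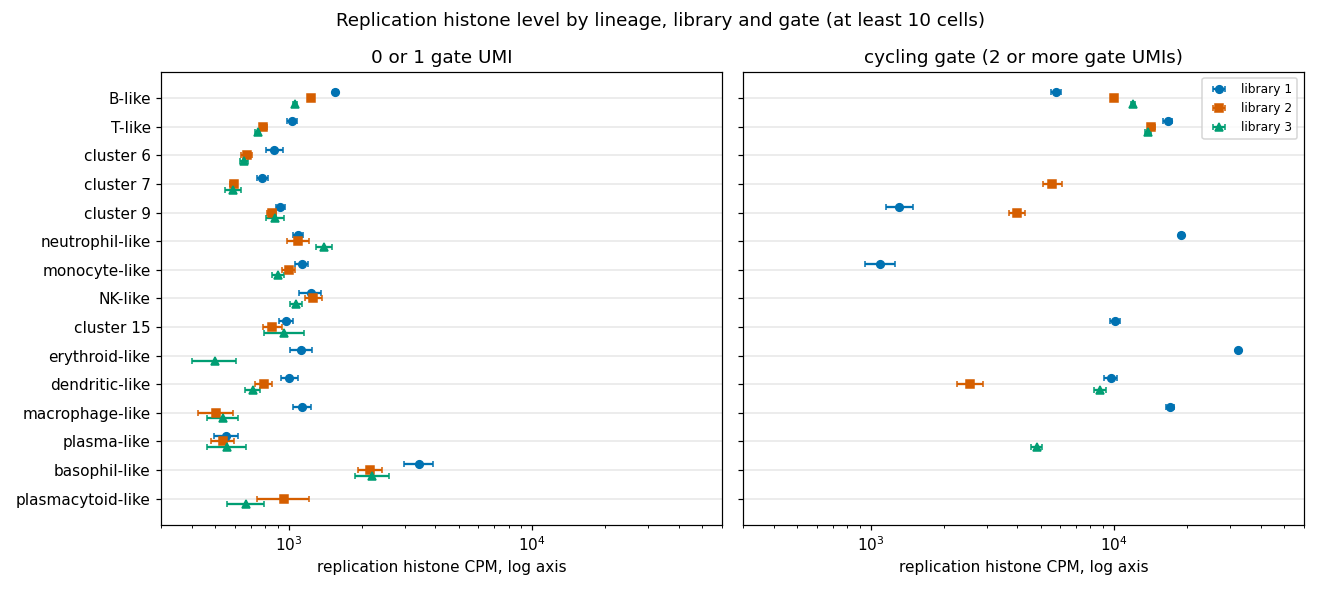
Summed replication histone CPM (log axis) by lineage outside the gate (left) and in the gate (right), per library, with exact 95% Poisson intervals, where a library had at least 10 cells. Outside the gate basophil-like cells stand highest, and in the gate erythroid-like cells of library 1 reach 32358 CPM while monocyte-like cells stay at 1096 CPM.

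Outside the gate the levels lay much closer together. Basophil-like cells were highest in each library, at 3425, 2159 and 2199 CPM, with few cells (24, 33 and 22). B-like cells had 1555, 1231 and 1061 CPM, and T-like cells 1035, 787 and 746 CPM. For NK-like cells the level was 1229, 1264 and 1073 CPM, for neutrophil-like cells 1094, 1095 and 1401 CPM, and these intervals overlapped in libraries 1 and 2. Plasma-like cells were low in each library, at 555, 535 and 559 CPM, and macrophage-like cells of libraries 2 and 3 overlapped with them at 501 and 536 CPM. These are shares of all RNA UMIs, not counts per cell, and immunoglobulin UMIs were not left out of the total here. Over the 3 libraries a median plasma-like cell outside the gate held 10696 UMIs, against 3039 for B-like cells. Clusters 6 and 7, whose cells mostly scored highest for T markers, stood under the cells named T-like. They were at 874, 672 and 654 CPM for cluster 6 and 779.7, 594 and 593 CPM for cluster 7. Their cells were also deeper, with medians of 5646 and 7589 UMIs over the 3 libraries, against 4507.5 in T-like cells. Erythroid-like cells outside the gate, with 0 or 1 Mki67 and Top2a UMI, stood far under those in it: 77 cells of library 1 had 1125 CPM and 27 of library 3 had 496 CPM. B-like cells of library 1 stood over those of libraries 2 and 3, and the T-like and cluster 7 cells did likewise, all with intervals apart.

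Single members set the lineages apart outside the gate, here over the 3 libraries summed. Hist1h2bc was at 177 CPM (159.9 to 195) in neutrophil-like and 141 CPM in basophil-like cells, against 21.7 CPM in B-like, 8.86 in T-like and 2.48 in cluster 7. It was at 101, 232 and 351 CPM in the neutrophil-like cells of libraries 1, 2 and 3, so each library showed it. The neutrophil-like cells of library 1 include 142 of the 144 cells of cluster 20, so these values come from unlike mixtures. Hist1h4i had 52.7 CPM in neutrophil-like cells, 18.5 in B-like and 4.22 in cluster 7. Hist1h2be was at 56.6 CPM in neutrophil-like and 92.6 in basophil-like cells, and at 2.17 in plasma-like cells. Hist1h2ac had 92.6 CPM in basophil-like cells (25 UMIs) and 15.2 in B-like cells, its next highest. Hist2h2ac, in contrast, was highest in monocyte-like cells at 69.4 CPM, with NK-like cells at 60.7 CPM and intervals that overlap. Hist1h1e was at 733 CPM in basophil-like and 338 CPM in NK-like cells, and lowest in cluster 6 at 144 CPM. Hist1h3d was highest in B-like cells at 10.6 CPM from 330 UMIs, and Hist1h3e had 52.2 CPM there and 92.6 CPM in basophil-like cells (25 UMIs).

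The make-up of the linker histones changed with the gate. Of the UMIs of the 5 somatic Hist1h1 genes, H1f0 and H1fx together, Hist1h1e gave 49.3% (95% interval 48.8 to 49.8) and Hist1h1c 32.0% (95% interval 31.6 to 32.5) outside the gate. Hist1h1b gave 7.20% there and 37.6% (95% interval 37.2 to 38.0) within it, where Hist1h1c fell to 13.5% and Hist1h1a rose from 1.29% to 5.11%. Each library showed this, with Hist1h1b at 10.5, 5.24 and 6.94% outside and 35.3, 43.2 and 45.4% inside the gate. The share of Hist1h1b in the gate was 44.5% in B-like, 46.4% in T-like, 34.9% in erythroid-like and 14.7% in monocyte-like cells (102 linker UMIs). H1f0, a linker gene expressed outside S phase and known from differentiated cells, gave 15.3% (95% interval 12.1 to 18.8) of linker UMIs in plasma-like, 8.41% in dendritic-like, 7.36% in monocyte-like and 5.49% in T-like cells outside the gate, and 0.318% in B-like and 0.396% in neutrophil-like cells. Over all lineages H1f0 was at 22.7, 38.0 and 57.4 CPM in cycling and 15.2, 9.07 and 9.89 CPM in other cells. Hist1h1c had its largest shares in cluster 6 (45.2%) and cluster 7 (42.4%), against 23.7% in NK-like cells, where Hist1h1e had 59.0%.

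**Figure D5:**
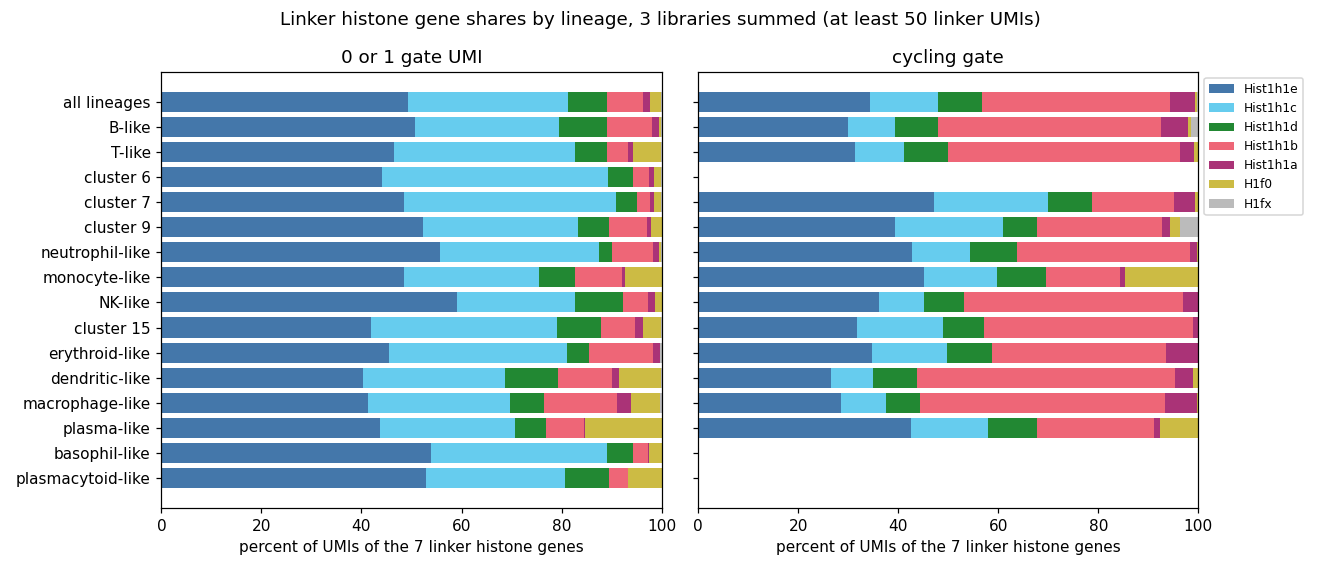
Shares of the UMIs of 7 linker histone genes by lineage outside the gate (left) and in the gate (right), 3 libraries summed, where a set had at least 50 such UMIs. Hist1h1b widens from 7.20% to 37.6% in the gate, and H1f0 is widest in plasma-like cells outside it.

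Since these genes are transcribed in S phase, gated cells were split at the median share of S phase genes (39 listed) among S and G2M UMIs. The cut is a range, not a type, with 88, 17 and 37 cells within 0.05 of it. S-rich cells had 25136, 6139 and 9004 CPM of replication histones and G2M-rich cells 18212, 14074 and 13507 CPM, so the order differed between libraries, with ratios of 1.38, 0.436 and 0.667. Without erythroid-like cells the ratio in library 1 was 0.941. The cells with 10 or more gate UMIs were also cut into 3 bands of equal size by S share, and the middle band was highest in each library, at 39069.9, 42355 and 29998 CPM. The lowest band had 26371, 15275 and 27574 CPM and the highest band 34648, 18991 and 12959 CPM, from 11 to 19 cells per band in libraries 2 and 3. Bands were cut per library, so the middle one spanned unlike S shares: 0.0837 to 0.326, 0.118 to 0.206 and 0.178 to 0.391. Without erythroid-like cells the middle band of library 3, at 28641 CPM (27993 to 29300.5), overlapped the lowest, at 27899 CPM (27310 to 28498). Erythroid-like cells of library 1 also peaked in the middle, at 31872, 50914 and 38332 CPM from the lowest to the highest band. No member was called between S-rich and G2M-rich cells, where 0.299% of 15701 genes were called higher and 0.178% lower. Hist1h1a had ratios of 6.24, 1.82 and 1.72, above 1 in each library, and Hist1h1b had 2.60, 0.537 and 0.839.

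High histone levels were found mostly in gated cells: 194 (38.6%), 19 (13.8%) and 29 (15.03%) gated cells had at least 10000 CPM, against 9 (0.243%), 3 (0.0407%) and 1 (0.0121%) of the cells outside, which were shallow, with medians of 914, 744 and 900 UMIs in libraries 1, 2 and 3. S phase genes outside the gate went with small differences. The 750, 2183 and 2034 cells outside whose S phase level reached the gated median had 1405, 996 and 929.95 CPM of replication histones, against 1085, 921 and 886 CPM in the remaining cells, ratios of 1.29, 1.08 and 1.05. That median was 1097, 894 and 946 CPM, which few S phase UMIs reach at this depth, and 20.3%, 29.6% and 24.6% of the cells outside passed it. They were shallower, with medians of 2845, 3280 and 3363 UMIs against 3825, 3706.5 and 3864 in the remaining cells. A replication histone UMI was found in most cells of either kind, so detection separates them poorly: at 1000 UMIs per cell 77.7% of gated and 60.8% of other cells had one, after leaving out 47 and 1542 shallower cells, and unthinned 97.8% and 90.5%.

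The machinery that makes and packs these histones moved with them only in part. Of 7 genes that act in their transcription, 3 were higher in cycling cells and 0 lower. Over all 19403 genes with a UMI, 2.21% were called higher and 0.825% lower, which is the share to set beside each list here. Ccne2, a cyclin E gene, had 107, 27.2 and 31.3 CPM in cycling and 1.20, 0.486 and 1.07 CPM in other cells, Ccne1 had 104, 33.7 and 26.1 and 7.64, 5.96 and 5.59 CPM, and E2f1, a factor of S phase entry, had 26.3, 24.4 and 24.0 and 2.59, 2.59 and 2.66 CPM. Npat itself had 32.2, 40.1 and 35.0 and 23.3, 27.7 and 29.99 CPM and was not called, and neither were Casp8ap2 (88.9, 102 and 93.0 and 61.9, 68.0 and 76.8 CPM), Cdk2 (36.5, 24.4 and 38.1 and 17.5, 18.3 and 21.4 CPM) or Hinfp. Of 10 genes of 3′ end processing and decay, Slbp alone was called higher, at 287, 173 and 196 CPM in cycling and 69.0, 72.3 and 73.3 CPM in other cells, a 2.39- to 4.16-fold difference. Cpsf2 (63.5, 86.0 and 103 and 58.7, 67.2 and 73.7 CPM) and Eri1, an exonuclease that acts on the histone hairpin (89.3, 89.5 and 81.5 and 51.4, 56.5 and 54.6 CPM), were not called.

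Of 12 chaperones and assembly factors 5 were higher and 0 lower, against 2.21% and 0.825% of all genes. Asf1b, which carries H3 and H4, had 83.8, 56.6 and 44.9 CPM in cycling and 3.85, 3.37 and 3.64 CPM in other cells, and Chaf1a, the large subunit of the chromatin assembly factor CAF-1, had 47.1, 42.3 and 39.2 and 2.97, 1.88 and 1.92 CPM. Chaf1b had 33.4, 17.2 and 19.8 and 4.796, 4.502 and 4.56 CPM. Nasp, a histone chaperone, had 158, 156 and 156 and 51.9, 63.9 and 62.5 CPM, and Hat1, which acetylates new H4, 75.5, 52.3 and 58.5 and 23.8, 22.9 and 22.7 CPM. Supt16 and Rbbp4 were higher by 1.47 to 1.90 times, under the limit of 2. Of 11 variant histone genes that are not among the members 4 were higher and 0 lower: H2afz (1495, 1253 and 1119.6 and 479, 413 and 319 CPM), H2afx (362, 214 and 216 and 28.5, 26.3 and 23.5 CPM), the centromeric Cenpa (265, 177 and 136 and 29.3, 28.2 and 32.6 CPM) and H1fx (9.08, 13.6 and 30.3 and 0.820, 0.194 and 0.740 CPM). H3f3a, which encodes the replacement histone H3.3, had ratios of 1.601, 0.963 and 0.994 and H3f3b 1.14, 1.15 and 1.19, far under those of the replication H3 genes. H2afj was level at 0.991, 1.01 and 0.963. H2afv (1.90, 2.66 and 2.73) and H1f0 (1.49, 4.19 and 5.81) were higher in cycling cells but under the limit of 2 in library 1, so neither was called.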

How the data were processed

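The authors' deposited matrix holds UMI counts (whole numbers, not normalized) for 31053 genes and 34 antibodies in 29005 barcodes. Per the file headers and the submitters' processing notes the counts were made with Cell Ranger 5.0.1 on mm10 from 10x 3′ libraries, joined by its aggregation step, with Seurat named for later analysis. Whether aggregation subsampled reads is not given in any source used. The deposited counts sum to 24569928, 36599055 and 40949298 UMIs in barcodes of suffix 1, 2 and 3. No sample column had to be left out, and antibody counts were not used.

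Barcodes with 300 to 5000 genes and at most 10% mitochondrial UMIs were kept (20161, or 69.5%). No doublet caller was run, so only the 5000-gene limit acts on doublets. UMIs were summed per library and set, as CPM with exact 95% Poisson intervals. Shares have Clopper-Pearson intervals, and a group under 3 UMIs was set to 3 in a ratio. A gene was called at a ratio of at least 2 or at most 0.5 with intervals apart in all 3 libraries. With 1 pooled library per group and no link from suffix to group, no test was run. Intervals do not cover variation between animals.

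Lineages came from Louvain clusters (resolution 0.8, 20 components, 20 neighbours, 2000 variable genes), made without the members and 2727 genes that follow the gate, and were named from marker lists. Every member with at least 100 UMIs was named. The members, gene lists and rules were chosen with earlier results of these data known. Of 31053 genes, 30934 matched GENCODE M21, and 62 of 67 members had a RefSeq promoter. Tools were Python 3.11.15, numpy 2.4.6, scipy 1.17.1, pandas 2.3.3, python-igraph 0.11.9, scikit-learn 1.9.0 and matplotlib 3.10.9. Alternatives changed the cell limits, gate, depth, averaging, lineages and libraries.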

Additional observations from a re-analysis of the deposited data

Results flagged for a closer look

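Replication histone UMIs were also counted in barcodes that the comparisons did not use, above the 3 UMIs that a count of 0 allows. Barcodes with under 300 genes had 2375, 452 and 439 CPM in libraries 1, 2 and 3. These barcodes were not split by the gate, and 11.4%, 0% and 1.24% of them met it. All kept cells, gated or not, had 5567, 1339 and 1444 CPM, above the barcodes under 300 genes in each library. Kept cells outside the gate had 1132, 941 and 896 CPM. Barcodes with over 10% mitochondrial UMIs had 2804, 1062 and 1073 CPM. Split by the same gate, they had 6732, 3188 and 3952 CPM within it and 1826, 1020 and 929 CPM outside it.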

How the results depend on the processing

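The sum of the members was higher in cycling than in other cells under every alternative run. In libraries 1, 2 and 3 the ratio was 17.5, 10.4 and 11.6 with no mitochondrial limit, 19.3, 3.68 and 3.77 with at most 3500 genes, 13.8, 5.46 and 6.03 with a gate of 1 UMI, 25.4, 17.6 and 20.5 with a gate of 4, 13.2, 6.36 and 7.17 after thinning to 1000 UMIs, 11.8, 6.15 and 6.94 as a mean over cells, and 22.2, 12.4 and 14.1 without Hist1h1e. Chosen after seeing the data, a gate of 10 UMIs gave 30.1, 27.05 and 25.9, leaving out neutrophil-like cells as well as erythroid-like cells gave 7.57 in library 1, and leaving haemoglobin, immunoglobulin, mitochondrial and ribosomal protein UMIs out of the total gave 22.6 and 12.8 in libraries 1 and 3. Leaving out erythroid-like cells gave 9.48 in library 1 and 12.2 in library 3. Members called higher fell from 50 to 31 with at most 3500 genes and to 26 after thinning, where fewer cells and UMIs were left. Leaving out each library in turn gave 50 to 52, and no alternative called a member lower. The ratio of erythroid-like to B-like cells, 15.6, 3.17 and 2.20, was 10.9, 1.81 and 3.38 after thinning, 9.56, 2.06 and 3.501 as a mean over cells and 16.5, 1.91 and 2.03 with lineages called per cell. It was 16.9 in library 1 without Hist1h1e, 16.7 there at a clustering resolution of 1.6, 3.61 and 3.13 in libraries 2 and 3 with no mitochondrial limit, and, with at most 3500 genes, 0.366 and 3.22 in those libraries. Without cycling cells it reversed to 0.723, 0.183 and 0.468. The share of cells in the gate was 10.7% in library 1 with no mitochondrial limit, 21.3%, 5.53% and 7.64% with a gate of 1 UMI, 8.17%, 0.799% and 0.982% with 4, and 6.24%, 0.466% and 0.651% with 10. The ratio of S-rich to G2M-rich cells was 1.32, 0.373 and 0.989 after thinning, 1.30, 0.370 and 0.895 as a mean over cells, 1.40 and 0.419 in libraries 1 and 2 without Hist1h1e, and 1.33, 0.419 and 0.686 between the outer of 3 bands. The cause of these shifts was not tested. Of 324 alternatives of single levels, 123 stayed within the counting interval and 64 moved by over 1.5 times. No paired analysis was possible because each group is 1 pooled library and no column carries a replicate number. Members with few UMIs, and lineages with under 10 gated cells in a library, are limited by depth.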

Other observations

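Barcodes over the limit of 5000 genes, which entered no comparison, numbered 43, 16 and 20 in libraries 1, 2 and 3. Of them 95.3%, 87.5% and 70% met the gate of 2 Mki67 and Top2a UMIs, and together they had 17482, 15065 and 8322 CPM of replication histone transcripts.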
